A study of Mus musculus with 9 samples.

Results

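The E proteins and the Id proteins were examined through 6 genes, chosen by name from the 24594 genes measured. The E protein genes were Tcf3, which encodes E2A, Tcf12, which encodes HEB, and Tcf4, which encodes E2-2. The Id protein genes were Id1, Id2 and Id3. Their RPKM, reads on the exons of a gene scaled to its length and to the depth of the library, was followed in 9 bulk RNA-seq libraries of mouse thymocytes. A gene was tested where it reached an RPKM of 1 in at least 2 libraries. Tcf3, Tcf12, Id2 and Id3 passed this filter, and Id1 and Tcf4 did not.

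E proteins are basic helix-loop-helix transcription factors that bind DNA at E-boxes as pairs of subunits. Id proteins carry the helix-loop-helix surface but no DNA-binding region. They pair with E proteins and keep them off DNA, so that the amounts of both families together set E protein activity. In the thymus, E proteins hold cells at the double-positive stage and drive recombination of receptor genes. Signalling through the T cell receptor induces Id3 through ERK and the EGR factors, and Id2 and Id3 restrain E proteins as T cells mature.

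All libraries held semimature CD4 single-positive thymocytes (sorted as CD4+ CD8- CD69+ cells with the Vα2 and Vβ5 chains), and all cells carried the OT-II T cell receptor transgene, which recognizes a peptide of ovalbumin. Lethally irradiated hosts were made into mixed chimeras and received OT-II control marrow, OT-II marrow labelled as germline Nr4a1-/- Nr4a3-/- (DKO) and marrow without the transgene for 4.7 weeks. The ages of the hosts were not given in the sources used here. OT-II control donors were F1 animals of the 425Cbn transgenic line and BoyJ, and DKO donors were listed as C57BL/6. WT hosts were listed as BoyJ in the labels, while the methods of the study describe WT hosts from the same crosses as the RIPmOVA hosts. RIPmOVA hosts were F1 animals of BoyJ and the 296Wehi line, in which the rat insulin promoter drives a membrane-bound ovalbumin that medullary thymic epithelium also makes. There were n = 2 OT-II and n = 3 libraries labelled DKO from WT hosts, and n = 2 OT-II and n = 2 libraries labelled DKO from RIPmOVA hosts. These came from 5 chimeras, and 4 of the chimeras gave a library of each genotype. Differences between the genotypes therefore include any difference between the donor strains, and, if the labels hold, differences between the hosts include any difference between the host strains.

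E-boxes, the letters that E proteins bind, are shown for Id2, the Id gene that differed most between genotypes, and for Tcf3, the main E protein gene. In the 250 bases before the RefSeq start, Id2 and Tcf3 each held 1 E-box (CANNTG, which reads as the same pattern on either strand). Only the stretch that no annotated exon covers is printed, 5′ to 3′ on the gene's strand (RefSeq, GRCm38.p6), with the E-box in capitals. It is chr12:25096254-25096342 for Id2, within the first intron of a longer annotated transcript, and chr10:80433648-80433885 for Tcf3, upstream of the gene.
Id2: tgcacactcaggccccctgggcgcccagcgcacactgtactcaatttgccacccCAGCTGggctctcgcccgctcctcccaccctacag
Tcf3: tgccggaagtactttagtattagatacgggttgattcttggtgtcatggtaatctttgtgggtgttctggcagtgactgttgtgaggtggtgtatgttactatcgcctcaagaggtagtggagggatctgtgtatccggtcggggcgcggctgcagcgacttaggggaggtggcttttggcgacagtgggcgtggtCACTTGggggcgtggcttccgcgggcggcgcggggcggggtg
The Id2 E-box, CAGCTG, began 196 bases before the start, and that of Tcf3, CACTTG, began 54 bases before it. An E-box was present in 66.2% of 32851 promoters of this length, so its presence does not set these genes apart. The Id3 window held none, and it lies wholly within an annotated exon and is not printed. Of the 3 starts listed for Tcf12, the windows of 2 held 1 E-box each. The NBRE (AAAGGTCA, searched on both strands), the letters that Nr4a receptors bind, occurred in 1.34% of promoters, and among the members it was found in the window of 1 Tcf12 start. That window, chr9:71896097-71896346, lies inside the gene and, like that of Id3, wholly within annotated exons. The EGR letters GCGTGGGCG occurred in 0.536% of promoters and in none of the windows of the members.

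Depth, read from the size of the steps in low RPKM values, was 15520000 to 25050000 reads per library. Messages of the targeted genes did not check the genotype labels. Mean Nr4a1 was 73.4 RPKM in OT-II control and 76.0 RPKM in libraries labelled DKO from WT hosts, and 245 and 258 RPKM in those from RIPmOVA hosts. Nr4a3 was 4.69 RPKM in OT-II control and 15.3 RPKM in libraries labelled DKO from RIPmOVA hosts. A germline allele that removes a stretch of a gene can still give reads elsewhere in it, so these libraries are called by their label throughout. The T cell marker list summed to 1839 to 2235 RPKM, and the 7 B cell markers to 3.05 to 11 RPKM, with Cd79a at 2.31 to 6.33 RPKM and Ebf1 and Pax5 under 1 RPKM in every library. Transcripts of 1493 odorant, pheromone and taste receptor genes, which thymocytes are not known to use, summed to 74.4 to 648 RPKM. This background was highest in the libraries labelled DKO from RIPmOVA hosts (482 and 648 RPKM).

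The genes lie on separate chromosomes of the GRCm38 build, and GENCODE lists each as protein-coding. Id3 (Entrez 15903) lies at chr4:136143497-136145755 on the plus strand and Id2 (Entrez 15902) at chr12:25093799-25097140 on the minus strand. Id1 (Entrez 15901) lies at chr2:152736251-152737410 on the plus strand. Tcf3 (Entrez 21423) lies at chr10:80409514-80433647 on the minus strand, Tcf12 (Entrez 21406) at chr9:71842688-72111871 on the minus strand and Tcf4 (Entrez 21413) at chr18:69343356-69689079 on the plus strand. Tcf12 overlaps 11 other annotated genes and Tcf4 overlaps 1, and because the use of strand in counting was not stated, their values are less certain than those of the other 4, which overlap none.

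Id3 had the highest level of the 6 genes in every library. Its RPKM was 171 and 168 in OT-II control and 175, 157 and 180 in libraries labelled DKO from WT hosts, against 108 and 95.1 in OT-II control and 142 and 143 in libraries labelled DKO from RIPmOVA hosts. The 4 libraries from RIPmOVA hosts thus lay below all 5 from WT hosts, and among them the OT-II libraries were the lower. Of the genes tested, 8.39% separated the hosts in this way across both genotypes.

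Id2 followed in the order of levels. Its RPKM was 54.0 and 74.3 in OT-II control and 59.3, 67.7 and 79.6 in libraries labelled DKO from WT hosts, against 80.4 and 93.7 in OT-II control and 45.5 and 44.4 in libraries labelled DKO from RIPmOVA hosts. In WT hosts the genotypes overlapped, while in RIPmOVA hosts the OT-II libraries held the highest Id2 levels of all 9 and the libraries labelled DKO the lowest.

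Tcf3 was the main E protein message. Its RPKM was 22.9 and 24.9 in OT-II control and 21.1, 20.2 and 22.0 in libraries labelled DKO from WT hosts, and 26.8 and 28.4 in OT-II control and 26.1 and 23.7 in libraries labelled DKO from RIPmOVA hosts. Within each genotype the libraries from RIPmOVA hosts lay above those from WT hosts, with a narrow range over all libraries (1.4-fold from lowest to highest). Tcf12, whose product pairs with E2A in thymocytes, was 4.20 and 4.87 RPKM in OT-II control and 4.92, 5.21 and 5.27 RPKM in libraries labelled DKO from WT hosts. In RIPmOVA hosts it was 6.17 and 5.36 RPKM in OT-II control and 6.04 and 5.21 RPKM in libraries labelled DKO, and the libraries labelled DKO of the hosts overlapped.

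Id1 and Tcf4 were near the bottom of what was measured. Id1 ranged from 0.29 RPKM in an OT-II library from a WT host to 1.40 RPKM in an OT-II library from a RIPmOVA host, which corresponded to 14 to 71 reads. Tcf4, best known for its part in plasmacytoid dendritic cells and B cells, ranged from 0.399 to 0.829 RPKM, or 352 to 592 reads over its long exon model. Its highest values, 0.683 and 0.829 RPKM, were those of the libraries labelled DKO from RIPmOVA hosts. Its levels moved with the sensory receptor background. In the 4 libraries with most background (438 to 648 RPKM) Tcf4 was 0.553 to 0.829 RPKM, and in the other 5 (74.4 to 204 RPKM) it was 0.399 to 0.522 RPKM. Whether that background enters the Tcf4 values was not tested. Of 7 markers of plasmacytoid dendritic cells, which summed to 125 to 164 RPKM, Siglech, Spib, Cox6a2 and Klk1 stayed under 1 RPKM in every library. The others were Bst2 and Ccr9, which T cells also express, and Irf8, which rose in RIPmOVA hosts in OT-II (log2 difference 2.10, limma adjusted p = 0.0016) and in libraries labelled DKO (1.68, limma adjusted p = 0.0017). Without the filter on low values, limma's adjusted p for Id1 was 0.69 for RIPmOVA against WT hosts in OT-II libraries (log2 fold change 0.66, SE 0.34), and that for Tcf4 was 0.36 in libraries labelled DKO (0.38, SE 0.24). The remaining Id gene, Id4, which is not among the 6, ranged from 0.161 to 1.09 RPKM.

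**Figure D1:**
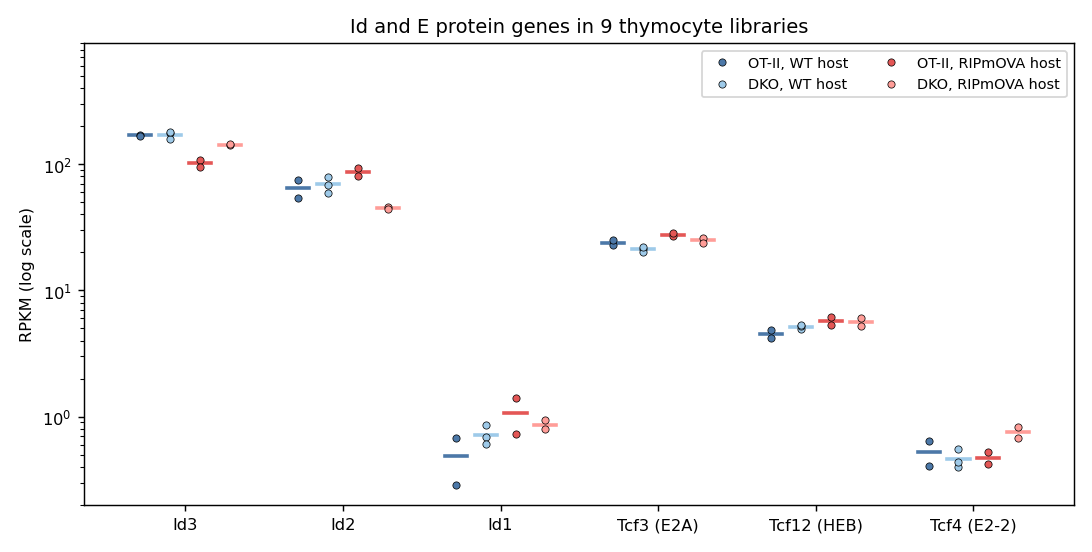
RPKM on a log axis of the 6 genes in each library (points), with the mean of each of the 4 groups (bars). Id3 lay above Id2, Id2 above Tcf3 and Tcf3 above Tcf12 in 9 of 9 libraries, while Id1 and Tcf4 lay near 1 RPKM or below.

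The order of levels, per length, was Id3, Id2, Tcf3 and Tcf12 in 9 of 9 libraries, with no overlap between neighbours within a library. Id1 lay above Tcf4 in 7 of 9, so that the order of these neighbours was not fixed. The order rests in part on the lengths used. The deposited length of each gene counts all its exons and was 2016 bases for Id3, 3175 for Id2, 9441 for Tcf3 and 26830 for Tcf12. The longest annotated coding transcripts were 1278, 1969, 2950 and 6299 bases. Dividing by these instead, an alternative chosen after seeing the data, raised Tcf3 3.2-fold and Id3 1.58-fold. Id2 then stayed above Tcf3 in 7 of 9 libraries, Id3 above Id2 in 8 of 9, and Tcf4 lay above Id1 in 8 of 9.

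Id messages together outweighed E protein messages in all libraries. The summed RPKM of Id1, Id2 and Id3 was 225.7 and 242.5 in OT-II control and 235.0, 225.8 and 259.7 in libraries labelled DKO from WT hosts. In RIPmOVA hosts it was 189.0 and 190.2 in OT-II control and 188.4 and 188.0 in libraries labelled DKO. The 4 libraries from RIPmOVA hosts thus shared nearly the same sum while its parts differed. Id2 made up 42.5% and 49.3% of the sum in the OT-II control libraries from RIPmOVA hosts, 24.1% and 23.6% in the libraries labelled DKO from those hosts, and 23.9% to 30.6% in WT hosts. Id1 never exceeded 0.737% of it. When libraries were rescaled by median-of-ratios size factors, the Id sum was 165 to 205 in RIPmOVA and 203 to 278 in WT hosts, so that neither the near-equal sums nor the full separation of the hosts was kept.

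The E protein sum overlapped between the hosts. Summed RPKM of Tcf3, Tcf4 and Tcf12 was 26.0 to 30.2 in WT hosts and 29.7 to 34.2 in RIPmOVA hosts, and Tcf3 made up 77.8% to 83.1% of it. The ratio of the E sum to the Id sum was 0.123 and 0.124 in OT-II control and 0.113, 0.115 and 0.107 in libraries labelled DKO from WT hosts, against 0.177 and 0.180 in OT-II control and 0.175 and 0.158 in libraries labelled DKO from RIPmOVA hosts, above every library from WT hosts. Scaling within a library cancels in this ratio, but its size depends on the lengths used, and with the longest coding transcripts the group means were 0.241 and 0.265 in WT hosts and 0.359 and 0.381 in RIPmOVA hosts. Id3, a part of the Id sum, separated the hosts by itself, as did 8.39% of the genes tested, so the ratio is not a separate result. These are ratios of messages, and no protein was measured.

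**Figure D2:**
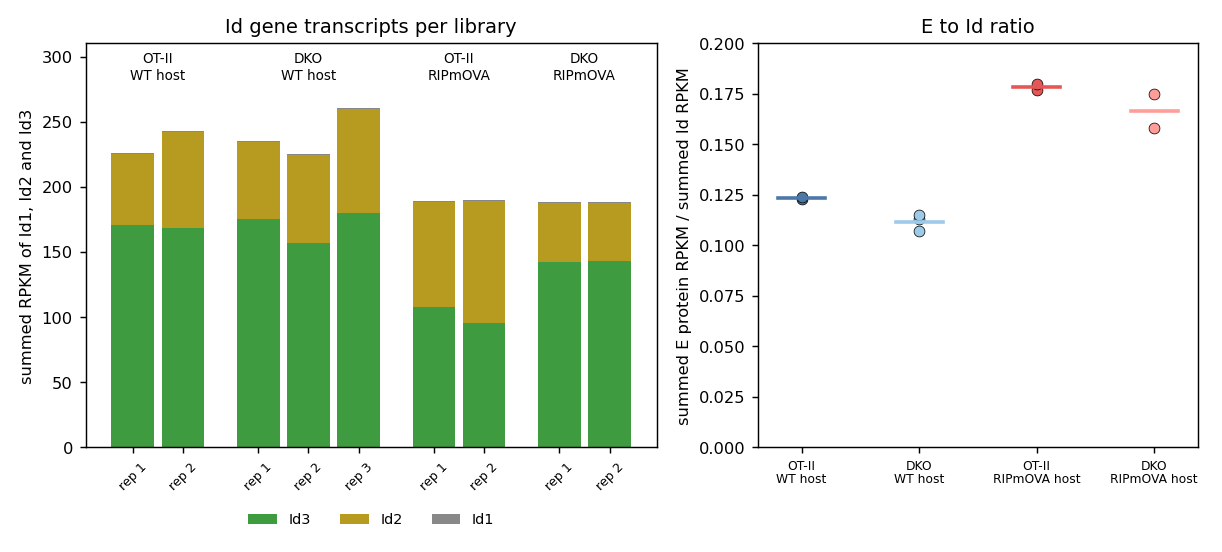
Left, the summed RPKM of Id3, Id2 and Id1 in each library (stacked bars, from 0), and right, the ratio of summed E protein RPKM to summed Id RPKM in each library (points) with group means (bars). The Id sums of the 4 libraries from RIPmOVA hosts lie between 188.0 and 190.2, and their ratios of 0.158 to 0.180 lie above the 0.107 to 0.124 of WT hosts. Id3, a part of the sums, separates the hosts by itself.

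The host comparison in OT-II libraries asks what differs where the antigen is a self-antigen in the thymus. Id3 fell, from a mean of 170 ± 2.23 (SD, n = 2) to 101 ± 9.05 RPKM (SD, n = 2). The log2 fold change of RPKM + 0.5 was -0.74 (SE 0.10, 95% confidence interval -0.96 to -0.52, limma adjusted p = 0.0061). Id3 was the 1 member of 4 past the adjusted p of 0.05, beside 1.89% of the 11569 genes tested, and 0.467% were past it and lower. With the limit of 1 on the absolute log2 fold change that the study also used, limma called 0 of the 4 members, beside 1.23% of genes, although 3 members had an unadjusted p under 0.05. The linear model on recovered reads (voom) gave the same 3 counts. In bulk RNA, fewer cells expressing Id3 and less Id3 message per cell cannot be told apart. The adjusted p of Id3 was 0.07 after median-of-ratios rescaling, 0.077 in a fit to the OT-II libraries alone and 0.06 without OT-II RIPmOVA replicate 2.

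The other 3 tested members did not pass in OT-II libraries, and their values were higher in RIPmOVA hosts. Id2 was 64.2 ± 14.4 RPKM (SD, n = 2) in WT and 87.1 ± 9.44 RPKM (SD, n = 2) in RIPmOVA hosts (log2 difference 0.45, SE 0.17, limma adjusted p = 0.26). Tcf12 differed by 0.32 (SE 0.13, limma adjusted p = 0.32) and Tcf3 by 0.20 (SE 0.10, limma adjusted p = 0.39) on the log2 scale. Id2, Id3 and Tcf3 did not overlap between the hosts in OT-II libraries, nor did Tcf12, a pattern that 41.6% of the genes tested showed.

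In libraries labelled DKO the means of Id2 and Id3 were lower in RIPmOVA hosts, and neither difference passed. Id3 was 171 ± 11.6 RPKM (SD, n = 3) in WT and 142 ± 0.612 RPKM (SD, n = 2) in RIPmOVA hosts, a log2 difference of -0.26 (SE 0.09, limma adjusted p = 0.17). Id2 was 68.9 ± 10.2 RPKM (SD, n = 3) in WT and 44.9 ± 0.753 RPKM (SD, n = 2) in RIPmOVA hosts, a log2 difference of -0.60 (SE 0.16, limma adjusted p = 0.081). Tcf3 differed by 0.23 (SE 0.09, limma adjusted p = 0.22) and Tcf12 by 0.12 (SE 0.12, limma adjusted p = 0.62). Limma placed 0 of the 4 past the adjusted p, beside 3.35% of genes, and called 0, beside 1.68%, while 3 had an unadjusted p under 0.05, and voom gave the same counts. Without OT-II WT replicate 1 or 2, which are not in this comparison but enter the shared spread and the filter, the limma adjusted p of Id2 was 0.034 or 0.036. Id2, Id3 and Tcf3 did not overlap between the hosts, as for 40% of genes. Median-of-ratios rescaling moved the median of all genes in this comparison from 0.03 to -0.13 and turned the sign of Tcf12 (-0.04).

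Averaged over the genotypes, Id3 was lower in RIPmOVA hosts by a log2 difference of -0.50 (SE 0.06, limma adjusted p = 0.0028), beside 6.75% of genes past the adjusted p and 2.79% past it and lower. With the fold limit 0 of the 4 were called by limma and by voom, beside 1.87% of genes, while 3 had an unadjusted p under 0.05. Id3 passed in 20 of 20 alternatives for this comparison. Tcf3 differed by 0.22 (SE 0.07, limma adjusted p = 0.089) and Tcf12 by 0.22 (SE 0.09, limma adjusted p = 0.21), and the Id2 difference was -0.07 (SE 0.12), since its values went opposite ways in the genotypes.

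The genotypes were then compared within RIPmOVA hosts, where OT-II and DKO-labelled cells matured in the same thymus. Id2 was lower in the libraries labelled DKO by a log2 difference of -0.94 (SE 0.17, 95% confidence interval -1.33 to -0.56, limma adjusted p = 0.028), which is 0.52 times the OT-II level. Id3 was higher by 0.49 (SE 0.10, 95% confidence interval 0.27 to 0.71, limma adjusted p = 0.036), or 1.4-fold. Thus 2 of the 4 tested members were past the adjusted p, in opposite directions, beside 2.21% of genes (0.908% higher and 1.31% lower). Limma called 0 of the 4 with the fold limit, beside 1.07% of genes, with 2 members at an unadjusted p under 0.05, and voom gave the same counts. Neither gene overlapped between the genotypes here, as for 59% of the genes tested. The same directions held within each chimera. DKO over OT-II RPKM was 0.565 and 0.474 for Id2 and 1.32 and 1.5 for Id3 in the RIPmOVA chimeras, against 1.10 and 0.911 for Id2 and 1.02 and 0.937 for Id3 in the WT chimeras that gave both genotypes.

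Both adjusted p values were sensitive to which libraries and scaling were used. Without 1 of the RIPmOVA libraries the log2 differences stayed at -1.05 to -0.83 for Id2 and 0.40 to 0.58 for Id3. Id2 no longer passed when any 1 of the 4 RIPmOVA libraries was left out (limma adjusted p of 0.18 without OT-II replicate 2, 0.12 without DKO replicate 2, 0.11 without OT-II replicate 1 and 0.088 without DKO replicate 1). Id3 no longer passed in those fits either (0.21, 0.14, 0.099 and 0.12, in the same order), nor without DKO WT replicate 1 (0.065) or 3 (0.054). With the chimera as a fixed replicate block, 1 of the blocks tried, the limma adjusted p was 0.024 for Id2 and 0.056 for Id3. Median-of-ratios rescaling moved the median of all genes from 0.04 to -0.17, and the differences were then -1.18 for Id2, past both limits (limma adjusted p = 0.023), and 0.26 for Id3 (limma adjusted p = 0.33). The sensory receptor background was 482 and 648 RPKM in the DKO-labelled and 204 and 74.4 RPKM in the OT-II libraries from these hosts, and with it as a covariate the Id2 difference was -0.62 (limma adjusted p = 0.38) and that of Id3 0.51 (limma adjusted p = 0.31).

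**Figure D3:**
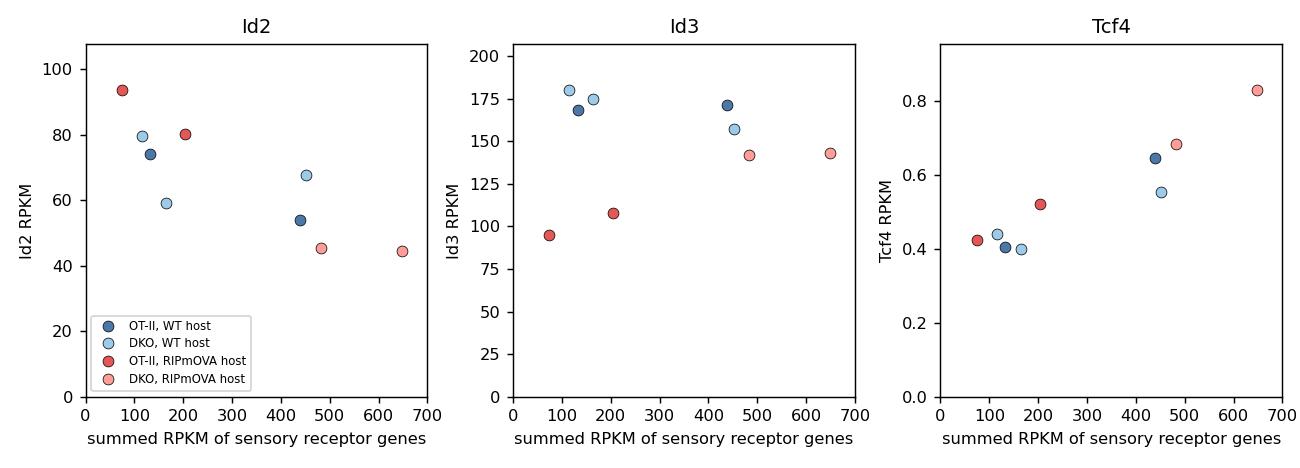
RPKM of Id2, Id3 and Tcf4 against the summed RPKM of the 1493 sensory receptor genes, 1 point per library, coloured by group. Id2 was 44.4 to 67.7 RPKM in the 4 libraries with most background and 59.3 to 93.7 RPKM in the other 5, and Tcf4 was 0.553 to 0.829 against 0.399 to 0.522 RPKM.

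Natural killer cells and innate lymphoid cells, which express Id2 at high levels, lack the sorted receptor chains. How completely the gate removed them was not tested. Their markers were examined with those of regulatory T cells. The summed RPKM of 7 natural killer and innate lymphoid markers was 20.7 to 25.0 in OT-II control libraries from RIPmOVA hosts and 1.65 to 5.28 in all others. Most of it was Nkg7, a cytotoxic granule gene, at 18.6 and 15.6 RPKM. Means of Klrd1 and Gzma were also highest in that group, although single Gzma values overlapped with other groups. Klrd1 was 2.24 RPKM there and 0.04 to 0.199 RPKM in the other groups, and Gzma was 2.4 and 0.476 to 1.0 RPKM. The defining markers Klrb1c, Eomes and Tyrobp stayed under 1 RPKM in every library. Ncr1 was 0.148 RPKM in OT-II control against 1.14 RPKM in libraries labelled DKO from RIPmOVA hosts. The summed RPKM of 6 regulatory T cell markers was 141 to 146 in OT-II control and 86.6 to 118 in libraries labelled DKO from RIPmOVA hosts, against 54.3 to 63.2 and 27.0 to 32.0 in WT hosts. It was thus higher in RIPmOVA hosts in each genotype. Most of that sum was Tnfrsf18, at means of 101 and 68.2 RPKM in OT-II control and DKO from RIPmOVA hosts. In the same groups Foxp3, the defining factor of the lineage, was 2.61 and 0.0845 RPKM, and Lrrc32 was 3.54 and 0.666 RPKM. Ikzf4 was 7.42 and 3.61 RPKM, and Il2ra was 12.9 and 6.87 RPKM. These markers were lower in the libraries labelled DKO, while Ctla4 was higher, at 16.1 and 22.6 RPKM. The part of these cells in the Id2 and Id3 values was not tested.

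In WT hosts the genotypes gave close Id levels. Id2 differed by a log2 of 0.11 (95% confidence interval -0.24 to 0.46) and Id3 by 0.01 (-0.19 to 0.20), and Tcf3 by -0.17 (-0.37 to 0.02) and Tcf12 by 0.16 (-0.11 to 0.44). Limma placed 0 of the 4 past the adjusted p and 0 under an unadjusted p of 0.05, as did voom, beside 0.0692% of genes past the adjusted p and 0.0605% called. The Id2 interval leaves room for changes of up to 0.46 in WT hosts, and that in RIPmOVA hosts ran from -1.33 to -0.56. Whether the genotype difference itself differed between hosts is the question of the interaction, given below, in which Id2 did not pass. Averaged over hosts, Id2 differed by -0.42 (SE 0.12, limma adjusted p = 0.094) and Id3 by 0.25 (SE 0.06, limma adjusted p = 0.079), beside 3.3% of genes past the adjusted p and 0.648% called. With the chimera as a fixed replicate block, the averaged Id2 difference was -0.47 and passed (limma adjusted p = 0.043).

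The interaction asks whether the host difference itself differs between the genotypes. For Id2 it was -1.05 (SE 0.23, 95% confidence interval -1.58 to -0.53), with an unadjusted p of 0.0014 and an adjusted p of 0.27 by limma over all 11569 genes. For Id3 it was 0.48 (SE 0.13, unadjusted p = 0.0046 and adjusted p = 0.43 by limma). Neither passed, and limma found 2 genes, or 0.0173%, past the adjusted p in this comparison, none of them a member. Id2 separated the hosts without overlap in each genotype and in opposite directions, as did 3.94% of the genes tested. For Tcf3 the interaction was 0.03 (SE 0.13) and for Tcf12 it was -0.20 (SE 0.18). With the chimera as a fixed replicate block the Id2 value was -0.94 (limma adjusted p = 0.27), and without OT-II WT replicate 2 it was -1.28 (limma adjusted p = 0.036).

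**Figure D4:**
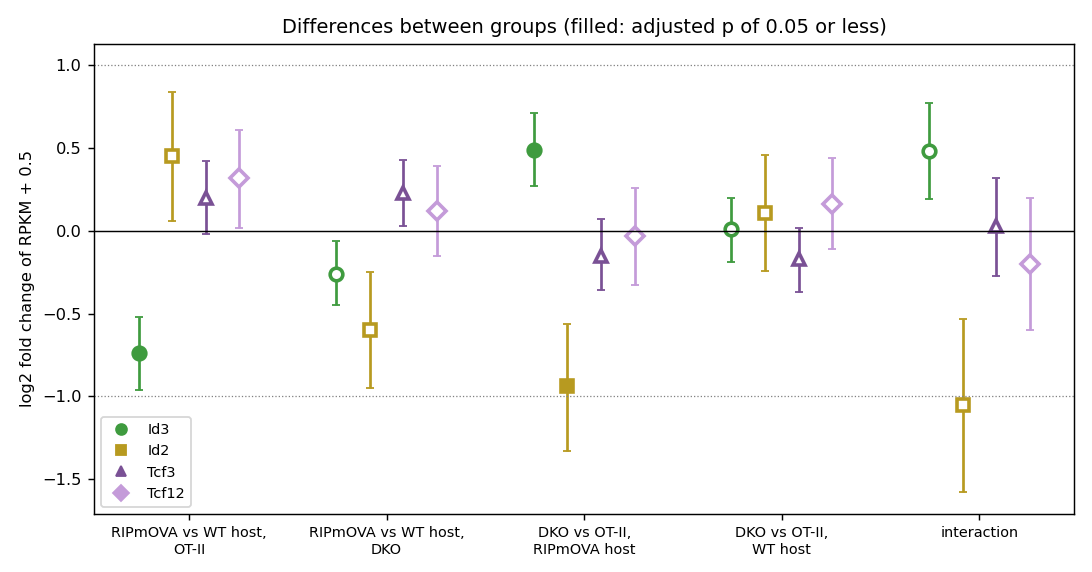
Log2 fold changes of RPKM + 0.5 of the 4 tested members in the host, genotype and interaction comparisons, with 95% confidence intervals from limma. Filled symbols have an adjusted p of 0.05 or less (Id3 between hosts in OT-II libraries, and Id2 and Id3 between genotypes in RIPmOVA hosts), and dotted lines mark the fold limit of 1.

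The partners and regulators of these proteins were read from lists chosen for their known roles. Among 19 partners that pair with E proteins or bridge their complexes, the 2 that passed the filter were Ldb1 and Lmo4, and 16 stayed under 1 RPKM in every library, with the hematopoietic partners Tal1, Lyl1 and Lmo2 among them. Ldb1, which bridges E protein complexes, fell in RIPmOVA hosts in libraries labelled DKO, from 36.2 ± 1.29 (SD, n = 3) to 24.2 ± 1.31 RPKM (SD, n = 2), which was -0.57 on the log2 scale (SE 0.08, limma adjusted p = 0.0073). Lmo4, a LIM-only adaptor, fell there from 6.07 ± 0.341 (SD, n = 3) to 3.67 ± 0.418 RPKM (SD, n = 2), which was -0.66 on the log2 scale (SE 0.14, limma adjusted p = 0.034). The 2 tested partners were thus past the adjusted p in libraries labelled DKO, beside 3.35% of genes, and neither reached the fold limit. In OT-II libraries Ldb1 differed between hosts by -0.29 (SE 0.09, limma adjusted p = 0.17) and Lmo4 by -0.03 (SE 0.15, limma adjusted p = 0.95). Averaged over genotypes, Ldb1 was lower in RIPmOVA hosts by -0.43 (SE 0.06, limma adjusted p = 0.0041), beside 6.75% of genes past the adjusted p. Ldb1 overlaps Pprc1 on the other strand.

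Of 11 cofactors of E proteins, 9 were tested. In OT-II libraries 1 of the 9 was called between hosts, beside 1.23% of all genes tested. Between genotypes in RIPmOVA hosts 1 was called, beside 1.07%, and each call was Carm1. Carm1, an arginine methyltransferase that acts with coactivators, was 6.59 ± 0.535 RPKM (SD, n = 2) in OT-II control libraries from WT hosts and rose to 14.8 ± 0.824 RPKM (SD, n = 2) in RIPmOVA hosts (log2 difference 1.11, SE 0.22, limma adjusted p = 0.038). It was 4.24 ± 1.80 RPKM (SD, n = 2) in libraries labelled DKO from RIPmOVA hosts, a log2 genotype difference of -1.74 (SE 0.22, limma adjusted p = 0.0065). Like Id2, Carm1 was lower in the libraries labelled DKO from RIPmOVA hosts, a direction in which 1.31% of genes were past the adjusted p. Carm1 overlaps Yipf2 on the other strand. The other 8 cofactors tested were not called in the host or genotype comparisons.

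Among 24 genes that E proteins are known to regulate in thymocytes, 17 were tested. In OT-II libraries 1 of the 17 was called between the hosts, beside 1.23% of all genes tested. This was the Notch target Hes1, which rose from 0.034 ± 0.0481 to 2.37 ± 0.307 RPKM (SD, n = 2 each, log2 difference 2.43, SE 0.46, limma adjusted p = 0.033). In libraries labelled DKO 2 of the 17 were called, in opposite directions, beside 1.68% of all genes tested. Cxcr5, the follicular homing receptor, rose from 0.13 ± 0.0652 (SD, n = 3) to 1.95 ± 0.756 RPKM (SD, n = 2, log2 difference 1.93, limma adjusted p = 0.022), and it overlaps Bcl9l on the other strand. Il7r, which encodes a subunit of the interleukin-7 receptor, fell from 51.8 ± 3.67 (SD, n = 3) to 16.4 ± 3.85 RPKM (SD, n = 2, log2 difference -1.64, limma adjusted p = 0.0034). Socs3, a suppressor of cytokine signalling, was called in the average over genotypes (-1.23, SE 0.27, limma adjusted p = 0.03), beside 1.87% of genes. Hes1 and Cxcr5, which rose, were called there as well. Cd4, the list's most abundant gene, and Foxo1 did not pass in either host comparison (log2 differences of -0.14 and -0.18 for Cd4, and of -0.15 and -0.03 for Foxo1). The median over the list was 0.11 in OT-II control and -0.03 in libraries labelled DKO, and over all genes tested it was -0.02 and 0.03.

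Of 14 genes known to induce Id genes, 13 were tested, and Nfil3 was the 1 called between hosts in OT-II libraries, beside 1.23% of all genes tested. Nfil3, a factor that induces Id2 in innate lymphocyte precursors, was 0.223 and 0.214 RPKM in OT-II control libraries from WT hosts and 2.93 and 2.65 RPKM in those from RIPmOVA hosts (log2 difference 2.19, SE 0.40, limma adjusted p = 0.029). In libraries labelled DKO it was 0.101, 0.171 and 0.276 RPKM in WT and 1.01 and 0.254 RPKM in RIPmOVA hosts, where the ranges overlapped. Its highest values fell in the libraries with the highest Id2 values. DKO WT replicate 3, however, had Id2 at 79.6 RPKM with Nfil3 at 0.276 RPKM. DKO RIPmOVA replicate 1 had Nfil3 at 1.01 RPKM with Id2 at 45.5 RPKM. A link between Nfil3 and Id2 was not tested. The immediate early factors through which T cell receptor signals induce Id3 stand in this list. Egr1 differed between hosts by a log2 of -0.02 in OT-II control and 0.28 in libraries labelled DKO (limma adjusted p of 0.96 and 0.31). Egr2 rose in RIPmOVA hosts in libraries labelled DKO by 0.35 (SE 0.08, limma adjusted p = 0.043), without reaching the fold limit, and differed by -0.13 in OT-II libraries (limma adjusted p = 0.53). Stat5a, named after its values were seen, was past the adjusted p between hosts in OT-II (0.86, limma adjusted p = 0.0061, beside 1.89% of genes). It also passed in libraries labelled DKO (0.60, limma adjusted p = 0.015, beside 3.35%). For DKO against OT-II it passed in RIPmOVA hosts (-0.61, limma adjusted p = 0.028, beside 2.21%). Averaged over hosts it passed too (-0.48, limma adjusted p = 0.013, beside 3.3%). Ets1 and Stat5b, the most abundant genes of the list, passed in none of these comparisons. Between hosts Stat5b differed by 0.37 in OT-II control and 0.01 in libraries labelled DKO (limma adjusted p of 0.12 and 0.97). Ets1 differed by 0.14 in OT-II control (limma adjusted p = 0.55).

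Feedback targets of BMP and TGF-beta signals, which also induce Id1 to Id3, formed a list of 8, of which 6 were tested. Skil was past the adjusted p and higher in the average over genotypes (log2 difference 0.61, SE 0.13, limma adjusted p = 0.029), beside 6.75% of genes. Smurf1 was past it and lower in RIPmOVA hosts in libraries labelled DKO (-0.64, SE 0.14, limma adjusted p = 0.047), beside 3.35%. Smurf2 and Smad7, the next most abundant of the list, passed in no comparison, and no gene of the list was called. All 9 genes that control the turnover of E and Id proteins were tested. Asb2, which targets E2A for degradation, was the 1 called in libraries labelled DKO (log2 difference 1.07, SE 0.23, limma adjusted p = 0.041), beside 1.68% of genes. It was also the 1 called in the average over genotypes (1.10, SE 0.17, limma adjusted p = 0.0063), beside 1.87%. An antisense gene, Gm15523, lies at its position. Usp1, which stabilises Id proteins, did not pass (log2 differences of 0.04 in OT-II control and 0.03 in libraries labelled DKO). Trim21, Fzr1 and Stub1, the other most abundant genes of that list, passed in no comparison.

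Some genes followed the members closely over the 9 libraries, which share groups and background, so that the correlations are a description. With Id2, the highest Pearson r of log2(RPKM + 0.5) was that of Glb1 (0.99), Rfxank (0.96) and Gata3 (0.955), the last ranging from 31.3 to 57.6 RPKM. With Id3 it was that of Mrm1 (0.974), Cdk2ap2 (0.974) and Man1a2 (0.965). With Tcf3 it was that of Lrp10 (0.984), Tnfsf11 (0.971), which encodes RANK ligand, and Mapkapk2 (0.955), and with Tcf12 that of Dnajc16 (0.96), Plscr3 (0.953) and Ergic1 (0.951). Among the members themselves, Tcf3 and Id3 ran opposite ways (r = -0.80), as did Tcf12 and Id3 (r = -0.58) and, less closely, Id2 and Id3 (r = -0.39).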

How the data were processed

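Gene expression was measured in 9 libraries of sorted thymocytes in 4 groups taken from the sample labels. According to the methods of the study, the authors made cDNA with SMART-seq v4 and Nextera XT libraries, aligned paired-end reads to mm10 with STAR and GENCODE vM17, removed duplicates with Picard and summed reads over exons with GenomicRanges in R. Versions of the aligner and of Picard, and whether strand was used, are not given in the sources used here. The deposited unit is RPKM, which the authors gave rounded to 3 decimals, so no count model was used.

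Read depth was recovered from the RPKM steps and the deposited gene lengths. All values checked (genes of up to 400 bases, up to 30 reads) were whole reads within 0.1, and the error on 3 simulated libraries was at most 0.0014%. A floor of 3 reads was 0.12 to 0.193 RPKM for a gene of 1 kb. These floors are for counting error alone.

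The 11569 genes that reached 1 RPKM in 2 or more libraries were fitted as log2(RPKM + 0.5) by limma 3.58.1 under R 4.3.3 (functions lmFit, contrasts.fit and eBayes with trend), with 4 group means over all 9 libraries. P values are two-sided with Benjamini-Hochberg adjustment over all genes tested. Calls needed adjusted p ≤ 0.05 and a log2 fold change of 1 or more in either direction. Fold changes on this scale understate those of low genes. Libraries of a group came from separate chimeras. On 5 simulated data sets of 11569 genes, a host difference in OT-II libraries was planted in 200 genes. Of the planted genes 85.6% were called, and 2.84% of calls were unchanged genes. Each planted difference was larger than the fold limit, so smaller ones, like most of those of the members, were not simulated. Python 3.11.15 with pandas 2.3.3 and matplotlib 3.10.9 was also used.

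The libraries of both genotypes from 1 chimera are paired by the animal in the labels. The correlations of their deviations from group means were 0.01 and -0.24 in WT and -0.08 and -0.08 in RIPmOVA chimeras. Alternatives were other pseudocounts, filters, scalings, blocks and fits, and each library left out in turn. The members and lists were chosen with earlier results of these data known. Named genes were the members, Id4, the targeted genes, the list genes called or among the 4 with the highest mean RPKM, and the 3 genes most like each tested member. Single marker and partner genes, mostly those under 1 RPKM, and Stat5a were named outside this rule, after their values were seen. Trbc1, Trbc2 and Hbb-bs had no matching entry. Coordinates are from GENCODE vM21 (GRCm38) and promoters from RefSeq (GRCm38.p6), with entries for 4 of the 6 members.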

Additional observations from a re-analysis of the deposited data

Results flagged for a closer look

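The host difference of Id2 went opposite ways in the genotypes. Id2 was 64.2 ± 14.4 RPKM (SD, n = 2) in WT and 87.1 ± 9.44 RPKM (SD, n = 2) in RIPmOVA hosts in OT-II libraries. In libraries labelled DKO it was 68.9 ± 10.2 RPKM (SD, n = 3) and 44.9 ± 0.753 RPKM (SD, n = 2). The hosts did not overlap in either genotype, with opposite directions, as for 3.94% of the genes tested. Their nearest values were 74.3 and 80.4 RPKM in OT-II libraries and 59.3 and 45.5 RPKM in libraries labelled DKO. The interaction was -1.05 on the log2 scale, with an unadjusted p of 0.0014 and an adjusted p of 0.27 by limma. With the sensory receptor background as a covariate it was -0.70 (limma adjusted p = 1.0). With the chimera as a fixed replicate block it was -0.94 (limma adjusted p = 0.27). Over the alternatives run it kept its sign, and the limma adjusted p ran from 0.036 to 1.0.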

How the results depend on the processing

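Past both limits, 0 members were called in any comparison, and this count changed with median-of-ratios rescaling (1 member, Id2, between genotypes in RIPmOVA hosts), without OT-II WT replicate 2 (1, Id2, in the interaction; 0 to 1 over the fits without a library) and with a call on adjusted p alone (1 between hosts in OT-II libraries, 1 in the host average and 2 between genotypes in RIPmOVA hosts). For the adjusted p alone, the host comparison in OT-II libraries had 1 member, 0 with median-of-ratios rescaling, 0 with only the groups compared, and 0 to 1 without a library. The host comparison in libraries labelled DKO had 0, and 0 to 1 without a library, and the host average 1, or 2 with quantile normalization (Id3 and Tcf3). The genotype comparison in RIPmOVA hosts had 2, and 1 with no filter, median-of-ratios rescaling, only the groups compared or the chimera as a fixed replicate block, 0 with no intensity trend or the background covariate, and 0 to 2 without a library. The genotype average had 0, and 1 with quantile normalization (Id3), with the fixed chimera block (Id2), and 0 to 1 without a library, and the interaction 0 to 1. For Id3 in the OT-II host comparison the log2 difference ran from -0.83 to -0.65 and passed in 18 of 21 alternatives, and for Id2 between genotypes in RIPmOVA hosts from -1.18 to -0.62 and in 15 of 21. For Id3 there it ran from 0.26 to 0.58 and passed in 9 of 21. Where not stated, the cause was not tested.

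Small differences changed sign: with median-of-ratios rescaling Tcf12 was -0.04 between hosts in libraries labelled DKO and -0.04 in the genotype average, and the Tcf3 interaction was -0.21. In WT hosts Id3 was -0.03 with the fixed chimera block. Without a library, the ranges were -0.03 to 0.06 for Id3 and -0.12 to 0.34 for Id2 between genotypes in WT hosts, -0.13 to 0.06 for Tcf12 between genotypes in RIPmOVA hosts, -0.19 to 0.04 for Id2 in the host average and -0.04 to 0.10 for the Tcf3 interaction. The chimera block changed no other call, and a block on replicate numbers across hosts, which share only a number, changed none of the members' calls in the host comparisons. The E to Id ratio was 0.122 in OT-II libraries from WT hosts without Id1 and Tcf4. With the longest coding transcript as length the ratios were 0.265, 0.241, 0.381 and 0.359 in OT-II control and libraries labelled DKO from WT and then RIPmOVA hosts, and mean levels were 235 (Id3), 107 (Id2), 1.40 (Id1), 76.9 (Tcf3), 22.4 (Tcf12) and 2.59 RPKM (Tcf4), by construction. Groups of 2 and 3 libraries limit all comparisons, and Id1, at 14 to 71 reads, is limited by depth.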
